A study of Mus musculus with 36 samples.

Results

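The genes of fatty acid oxidation and the target genes of PPARA were followed through every diet of a mouse kidney study. The list holds 55 genes, chosen by symbol from knowledge of the pathway, and a gene counted as measured when the array carried a probe set whose annotation names that gene alone. This held for 49 of the 55 genes, with 74 of the 45141 probe sets on the array. The others, Acsl1, Acad10, Hadha, Etfb, Cyp4a14 and Ucp2, are named only. A gene with several probe sets was counted by the one that was brightest over all arrays, and its other probe sets are given where they differ.

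Each of 36 male C57BL/6 mice of 10 to 12 weeks gave kidney RNA for its own Affymetrix array (HT MG-430 PM). All mice had first eaten SDS, a standard chow, for a week. In the fasting cohort, 4 mice were fasted for 3 days and 5 mice kept free access to SDS. In the other cohort, 5 mice received 30% dietary restriction (DR) for 2 weeks, with 3 mice on SDS ad libitum as their controls. A further 5 mice ate a protein-free diet, 4 a fat-free diet and 5 a carbohydrate (CHO)-free diet, each for 3 days. They were set against 5 mice on Control type I, a diet made as the control for these compositions. By the paper, protein took the place of carbohydrate in the CHO-free diet, and carbohydrate that of protein in the protein-free diet. Both kept the fat share of the control diet, and the fat-free diet held more protein in place of fat. All groups except the fasted mice and the DR mice ate ad libitum, and no group carried a transgene or other treatment. The DR mice got their ration at a set hour of the day, so restriction and meal time cannot be told apart in them. Mice on the short protein-free diet, by the paper, took in less energy than control mice, though not significantly so, and lost body weight. Missing protein and lower intake therefore cannot be told apart in the protein-free mice.

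Long-chain fatty acids are taken up and bound in the cell, activated to acyl-CoA esters, carried into mitochondria as carnitine esters and shortened there step by step by beta-oxidation. Very long, branched and unsaturated chains need peroxisomes or auxiliary enzymes. PPARA is a nuclear receptor that fatty acids activate. It pairs with RXR, binds DNA elements made of repeated units and switches on many genes of this pathway, above all in liver, heart and kidney, and the proximal tubule is the part of the nephron known for living on fatty acids.

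The element of this receptor pair is known as DR1, a direct repeat of AGGTCA with any 1 base (N) between both copies. It was searched on both strands with up to 2 mismatches, in RefSeq windows of GRCm38.p6 that run from 250 bases before to 50 bases after a gene's start. Windows were given for 46 of the 55 genes, and 6 of them held a match in the first window listed, against 3.81% of all 27025 genes with a window. Acox2, which was not called after fasting, held a match only in a second window, starting at transcribed base 10, and is not among the 6. A single AGGTCA, which is also each copy within the element, was found in 23.9% of the listed genes and 16.0% of all genes. The stretches that hold these 6 matches are printed since they show the receptor's element beside genes whose response is described later, each in the direction of transcription with the match in capitals, and with the reverse complement of the element where the match is on the other strand.
Fabp1 (chr6:71199788-71199848, plus strand, match 67 bases before the start, 1 mismatch): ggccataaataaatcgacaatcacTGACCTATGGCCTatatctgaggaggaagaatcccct
Plin2 (chr4:86670248-86670308, minus strand, match 225 bases before the start, 2 mismatches): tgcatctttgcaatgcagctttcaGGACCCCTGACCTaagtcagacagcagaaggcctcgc
Cd36 (chr5:17835923-17835983, minus strand, match 63 bases before the start, 2 mismatches): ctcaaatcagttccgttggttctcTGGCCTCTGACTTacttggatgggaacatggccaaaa
Echs1 (chr7:140116468-140116528, minus strand, match 83 bases before the start, 2 mismatches): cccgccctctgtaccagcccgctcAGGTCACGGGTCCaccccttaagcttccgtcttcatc
Etfa (chr9:55512284-55512344, minus strand, match 77 bases before the start, 2 mismatches): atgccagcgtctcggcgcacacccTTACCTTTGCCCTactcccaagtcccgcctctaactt
Ucp3 (chr7:100472916-100472976, plus strand, match 51 bases before the start, 2 mismatches): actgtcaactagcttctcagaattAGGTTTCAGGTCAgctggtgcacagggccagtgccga
A match says only that these letters are there, and positions count from the first transcribed base of the annotation.

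The number of arrays limits the precision. Pairs of arrays within a group correlated between 0.984 and 0.997 over all probe sets, and no 2 arrays were the same. The kidney markers were present on every array, with a mean log2 signal between 10.38 and 11.03 for 8 measured proximal tubule genes and between 10.2 and 11.3 for 6 genes of the thick ascending limb, and skeletal muscle genes did not exceed 3.54. Fat markers varied more, from 3.94 to 7.51 for 5 brown fat genes and from 4.89 to 8.30 for 4 adipocyte genes, and they are given beside the results they move with. Labels do not say whether mice shared a cage, and each p-value measures the spread between mice of one study.

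Fasting raised a large share of the pathway. Of the 49 measured genes, 20 (40.8%) rose and 2 fell after 3 days of fasting at a false discovery rate (FDR) under 5%, adjusted over the whole array, with a minimum fold change of 1.5, while over all 17097 genes 2.93% rose and 3.52% fell. Another 27 members did not pass. Fold changes are given as log2 values with their standard error (±). The median was 0.51 over the members and -0.01 over all genes. In 29 members (59.2%) all 4 fasted mice lay above all 5 SDS mice, and in 4 all lay below, where 9.91% and 11.4% of all genes did so. In whole kidney, a change in RNA per cell and a change in the number of cells of a type cannot be told apart.

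**Figure D1:**
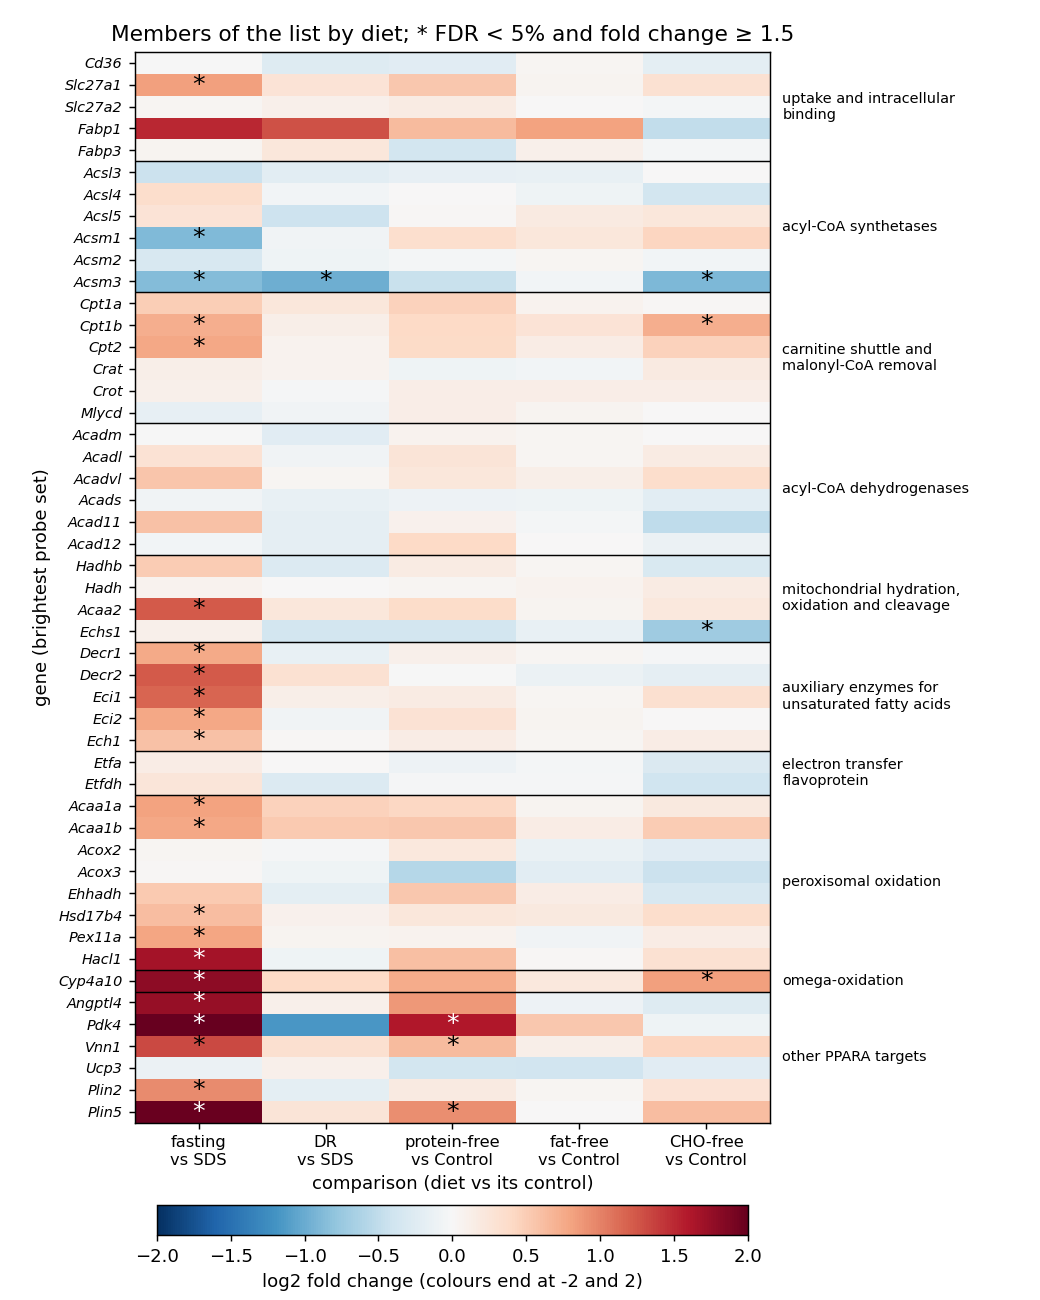
Log2 fold change of the 49 measured genes (rows, by role) in the 5 diets against their own controls (columns), with red for higher and blue for lower than the control and a star for an FDR under 5% with a fold change of at least 1.5. The fasting column holds 22 stars, the CHO-free column 4, the protein-free column 3, the DR column 1 and the fat-free column 0, and colours end at -2 and 2, so that Pdk4 with 3.07 after fasting is darker than the scale can show.

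Among the targets of PPARA outside the oxidation steps, 5 of the 6 measured rose. Pdk4, the kinase that holds pyruvate dehydrogenase off and so spares glucose, measured 6.65, 6.77, 6.60, 6.74 and 6.54 in the SDS mice and 9.50, 9.33, 9.83 and 10.25 in the fasted mice (all log2 signal). The lowest fasted mouse lay far above the highest SDS mouse, and the log2 fold change of 3.07 ± 0.15 (adjusted p = 4.25e-07) was the largest of all members. Plin5, a lipid droplet coat protein that ties droplets to mitochondria, measured 5.72, 5.71, 5.47, 5.99 and 5.42 in the SDS mice and 7.87, 7.60, 7.50 and 7.60 in the fasted mice. The groups did not overlap, with a log2 fold change of 1.98 ± 0.12 (adjusted p = 1.05e-06), and its second probe set rose by 1.30. Angptl4, a secreted inhibitor of lipoprotein lipase, measured 7.83, 7.91, 7.57, 8.09 and 7.75 in the SDS mice and 9.15, 9.38, 9.76 and 10.02 in the fasted mice. All fasted mice were higher, with 1.75 ± 0.16 (adjusted p = 2.64e-05), but a second, dimmer Angptl4 probe set gave only 0.28 and was not called. Vnn1, a pantetheinase, rose by 1.33 and Plin2, the common coat protein of lipid droplets, by 0.95. The remaining gene, the mitochondrial carrier Ucp3, had a log2 fold change of -0.12 (adjusted p = 0.434).

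Cyp4a10, a hydroxylase that starts omega-oxidation in the endoplasmic reticulum, measured 11.06, 10.93, 10.98, 11.07 and 11.23 in the SDS mice and 12.67, 12.94, 12.76 and 13.02 in the fasted mice. Its groups were clear of each other, with a log2 fold change of 1.79 ± 0.09 (adjusted p = 3.47e-07). The Cyp4a genes are close copies of each other, and a probe set of one may also read a relative.

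Of the 8 measured peroxisomal genes, 5 rose and none fell, with fold changes of the other 3 at 0.02, 0.03 and 0.52. Hacl1, a lyase that cleaves one carbon from branched and hydroxylated chains, measured 8.64, 8.55, 8.68, 8.18 and 8.88 in the SDS mice and 10.21, 10.44, 10.13 and 10.21 in the fasted mice. No value overlapped, and the log2 fold change was 1.66 ± 0.12 (adjusted p = 5.67e-06). Acaa1a, a peroxisomal thiolase, measured 11.28, 11.01, 11.37, 11.20 and 11.20 in the SDS mice and 11.99, 12.25, 11.84 and 11.99 in the fasted mice, a log2 fold change of 0.80 ± 0.09 (adjusted p = 0.000124). Its groups were apart as well, yet of its 4 probe sets 2 were called and 2 were not, with 0.21 and 0.32, and Acaa1b is a close copy that rose by 0.77, so the share of each copy is uncertain. Pex11a, which promotes the division of peroxisomes, measured 8.80, 9.03, 8.77, 8.88 and 8.74 in the SDS mice and 9.63, 9.59, 9.57 and 9.76 in the fasted mice. The fasted mice were all higher by 0.79 ± 0.07 (adjusted p = 2.46e-05). Hsd17b4, the multifunctional enzyme for branched chains, rose by 0.62. Ehhadh, its counterpart for straight chains, lay higher in every fasted mouse at an FDR under 5%, but its log2 fold change of 0.52 missed the minimum, and Acox2 (0.03) and Acox3 (0.02), the oxidases of branched chains, had brightest probe sets close to 0. A second Acox3 probe set read 0.58, just short of the fold change minimum, 0.585 on the log2 scale.

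All 5 auxiliary enzymes that handle the double bonds of unsaturated fatty acids rose. Decr2, the peroxisomal dienoyl-CoA reductase, measured 6.95, 6.85, 7.02, 6.76 and 7.15 in the SDS mice and 8.05, 8.57, 8.12 and 7.99 in the fasted mice. Each fasted mouse exceeded each SDS mouse, with 1.23 ± 0.12 (adjusted p = 3.51e-05). Eci1, the mitochondrial isomerase, measured 10.43, 10.18, 10.18, 10.13 and 10.31 in the SDS mice and 11.49, 11.49, 11.39 and 11.28 in the fasted mice, which were again all higher, by 1.17 ± 0.08 (adjusted p = 2.27e-06). Eci2, an isomerase found mostly in peroxisomes, measured 9.81, 9.71, 9.89, 9.84 and 9.99 in the SDS mice and 10.43, 10.77, 10.63 and 10.66 in the fasted mice. The difference was 0.77 ± 0.08 (adjusted p = 5.80e-05) without overlap. Decr1, the mitochondrial reductase, rose by 0.76, while its second probe set read 0.55 and did not reach the fold change minimum. Ech1, a dienoyl-CoA isomerase, rose by 0.59, just inside the minimum, and fell below it with 0.56 when fasted mouse K340 was left out and with 0.57 or 0.58 when SDS mouse K346 or K347 was. Hsd17b4 was lost in the same way without K340 (0.58) or without SDS mouse K349 (0.57).

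The mitochondrial steps and the acyl-CoA dehydrogenases moved less evenly. Acaa2, the thiolase of the last step, measured 10.06, 9.97, 10.11, 9.65 and 10.27 in the SDS mice and 11.18, 11.44, 11.14 and 11.19 in the fasted mice. The groups were apart by 1.22 ± 0.11 (adjusted p = 2.75e-05), and both its other probe sets were called higher too. Hadhb, a subunit of the trifunctional protein, had 0.51 and was past the FDR threshold alone, and Hadh and Echs1, a dehydrogenase and a hydratase of short chains, had 0.07 and 0.10. None of the 6 measured acyl-CoA dehydrogenases, the first step of each turn, was called. Acad11 (0.58), Acadvl (0.55) and Acadl (0.29), the dehydrogenases of very long and long chains, were higher in every fasted mouse at an FDR under 5% but short of the fold change minimum, and a second Acad11 probe set was past it with 0.65. Acadm (-0.01), Acads (-0.07) and Acad12 (-0.05) lay close to 0, Acadm and Acads being the enzymes of medium and short chains. The electron acceptors Etfa and Etfdh, which pass electrons on to ubiquinone, had 0.14 and 0.24.

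Of the carnitine shuttle, 2 of 6 members rose. Cpt2, the transferase of the inner membrane, measured 10.27, 10.34, 10.29, 10.43 and 10.31 in the SDS mice and 11.01, 11.16, 11.12 and 11.11 in the fasted mice. The fasted mice were all higher by 0.77 ± 0.06 (adjusted p = 6.33e-06). Cpt1b, the muscle form of the transferase at the outer membrane, measured 6.34, 6.70, 6.47, 6.60 and 6.34 in the SDS mice and 7.17, 7.03, 7.16 and 7.51 in the fasted mice, a difference of 0.73 ± 0.11 (adjusted p = 0.000626) without overlap. Cpt1a, the liver and kidney form of that transferase, had 0.49 and was past the FDR threshold alone. The other transferases Crat and Crot had 0.12 and 0.10, and Mlycd, which removes the CPT1 inhibitor malonyl-CoA, had -0.17.

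Of the 5 measured genes of uptake and binding, 1 rose. Slc27a1, a fatty acid transport protein, measured 5.38, 5.29, 5.18, 5.15 and 5.20 in the SDS mice and 6.02, 6.22, 5.87 and 6.17 in the fasted mice. It was higher in every fasted mouse by 0.83 ± 0.08 (adjusted p = 4.00e-05), the single gene of its role called. The brightest probe set of Fabp1, the liver fatty acid binding protein, read 1.503 ± 0.49 (SE) with an adjusted p of 0.0523, and its second probe set was called with 1.33, but SDS mice alone ranged from 2.82 to 5.81. Cd36, Slc27a2 and Fabp3, an uptake protein, a very long chain transporter and the heart binding protein, had -0.01, 0.04 and 0.06.

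Among the 6 measured acyl-CoA synthetases, none rose and 2 fell. Acsm1, a mitochondrial synthetase of medium-chain and aromatic acids, measured 9.97, 10.30, 10.14, 9.92 and 10.06 in the SDS mice and 9.16, 9.53, 9.20 and 8.87 in the fasted mice. All fasted mice lay lower, with -0.88 ± 0.12 (adjusted p = 0.000384). Acsm3, a relative of the same family, measured 12.01, 12.27, 12.22, 12.29 and 12.31 in the SDS mice and 11.29, 11.44, 11.38 and 11.29 in the fasted mice, again with no overlap and -0.87 ± 0.07 (adjusted p = 1.45e-05). Acsm2 (-0.33) and Acsl3 (-0.43) were lower in every fasted mouse at an FDR under 5% without reaching the fold change minimum, and Acsl4 (0.34) and Acsl5 (0.27) were higher at that FDR, also short of it. The long-chain synthetase Acsl1 was not analysed here.

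**Figure D2:**
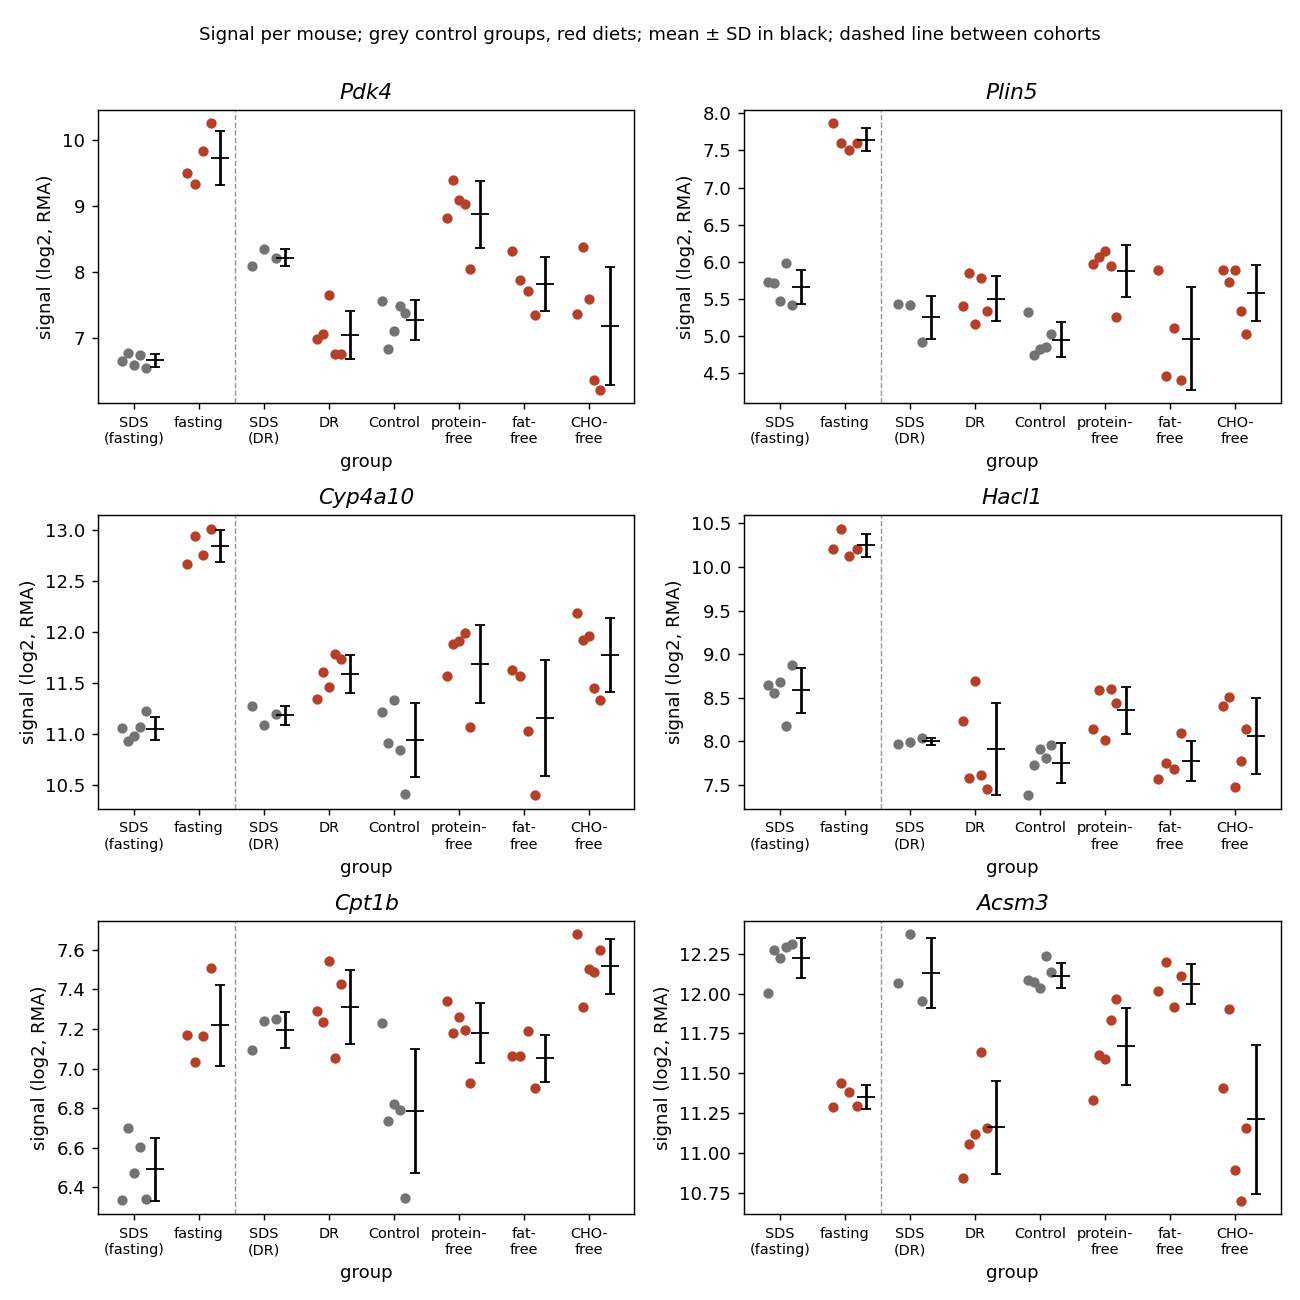
Log2 RMA signal of 6 members (panels) in each of the 36 mice, by group, with control groups in grey, diets in red, the mean ± SD in black and a dashed line between the separately normalized cohorts. Fasted mice lie above their SDS controls in Pdk4, Plin5, Cyp4a10, Hacl1 and Cpt1b and below them in Acsm3, protein-free mice lie above Control in Pdk4, and DR and CHO-free mice lie below their controls in Acsm3.

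Fat markers moved with fasting in 3 of the 4 mice. The mean log2 signal of 5 brown fat markers was 4.25 to 4.67 in the SDS mice, and 6.28, 5.34 and 5.80 in fasted mice K339, K340 and K343, with Cidea and Cox8b called higher and Cox7a1 lower. Of 4 adipocyte markers measured, Adig was called higher. Fasted mouse K344 had 4.13 for brown fat and 5.46 for the adipocyte markers, both below every SDS mouse. When K344 was left out, 20 members were called higher from the other 3 fasted mice, and all 20 lay above every SDS mouse in K344 too, as did 94.3% of all genes called higher in that way. Of the 20 members that rose with all 4 fasted mice, 6 were at the highest level of the 4 fasted mice, Pdk4 (10.25), Angptl4 (10.02) and Cyp4a10 (13.02) included, and 3 were at the lowest. With the brown fat mean as a covariate, 23 members were called higher and 2 lower (588 and 672 of the 17097 genes). A fit with K344 as the only fasted mouse has to assume that it varies like the SDS mice, so no count from it is given. Other marker means were lower in every fasted mouse than in every SDS mouse. They were those of leukocytes (5.18 to 5.40 against 5.66 to 5.98, with 4 of 8 genes called lower), the distal convoluted tubule (9.002 to 9.09 against 9.31 to 9.59, 2 of 4 called lower) and the thick ascending limb (11.11 to 11.15 against 11.19 to 11.33, 0 of 6 called). The skeletal muscle mean was higher (3.435 to 3.54 against 3.28 to 3.433, 0 of 5 called). The part of these cell types in the results was not tested.

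**Figure D3:**
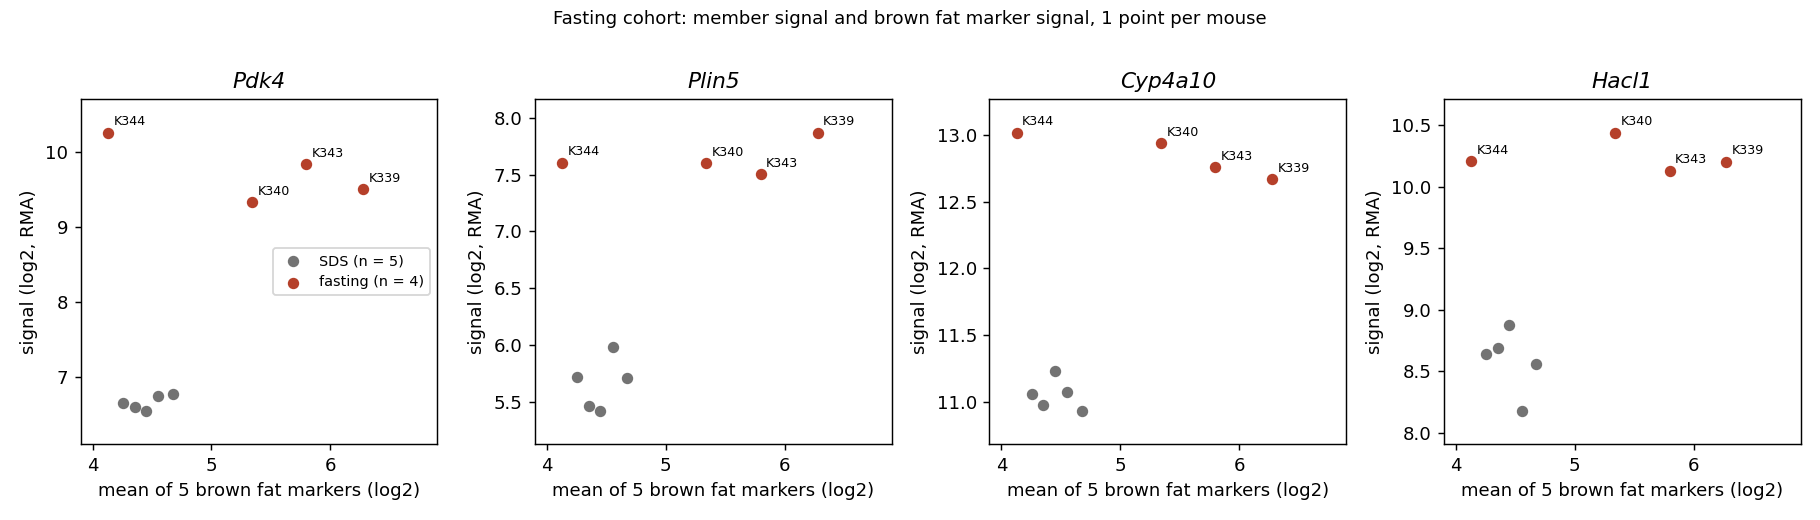
Log2 signal of 4 members (panels, vertical axis) against the mean log2 signal of 5 brown fat markers (horizontal axis) in the fasting cohort, 1 point per mouse, SDS in grey and fasting in red. Mouse K344 lies at 4.13 on the horizontal axis, left of all SDS mice, and within or above the range of the other fasted mice on the vertical axis.

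The promoter stretches can be set beside these values. Of the 20 members that rose after fasting, 13 had a window, and 1 of these (7.69%), Plin2, held a DR1 match, while 5 of the 28 others that were measured and had a window (17.9%) did, namely Fabp1, Cd36, Echs1, Etfa and Ucp3. The match in the Fabp1 stretch was the closest, with 1 mismatch. Windows of 300 bases miss elements in introns or farther upstream.

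Genes around the pathway, taken from lists of neighbouring functions written for this work, changed in both directions after fasting. Of 48 measured, 11 rose and 6 fell. The highest were G0s2 (1.63), an inhibitor of adipose triglyceride lipase, Slc25a20 (1.18), the carnitine-acylcarnitine carrier of the inner membrane, and Ppara itself (1.004). The lowest was Amacr (-1.35), a racemase for branched-chain acyl-CoA. Ppara and Ppard, genes of related receptors, went opposite ways, Ppard with -0.78. Among the regulators of pyruvate dehydrogenase, Pdk1 (0.80) and Pdk2 (0.70) rose with Pdk4, while Pdk3 (-0.64) and the phosphatase Pdp2 (-0.72) fell.

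The protein-free diet raised 3 members and lowered none. Over all genes 0.526% rose and 0.497% fell in this comparison, and the members' 3 of 49 came to 6.12%. Pdk4 measured 7.56, 6.83, 7.10, 7.48 and 7.38 in the Control mice and 8.82, 9.39, 9.09, 9.03 and 8.04 in the protein-free mice. The lowest protein-free mouse exceeded the highest Control mouse, with a log2 fold change of 1.60 ± 0.30 (adjusted p = 0.00324), and the call stood under every alternative run. Vnn1 measured 10.17, 10.28, 10.01, 10.52 and 10.26 and 10.85, 11.04, 10.70, 11.33 and 10.49 in the same groups. A single pair of mice overlapped, the log2 fold change was 0.63 ± 0.14 (adjusted p = 0.0127), and it fell to 0.57, under the fold change minimum, without Control mouse TS28 and was lost with 0.52 (adjusted p = 0.0555) without protein-free mouse TS52. Plin5 measured 5.32, 4.74, 4.83, 4.85 and 5.03 and 5.97, 6.07, 6.14, 5.95 and 5.26. Protein-free mouse TS54 lay below the highest Control mouse, the log2 fold change was 0.92 ± 0.23 (adjusted p = 0.0306), and the call was lost without any 1 of 3 Control mice (TS27, TS28, TS29) or any 1 of 4 protein-free mice (TS49, TS50, TS51, TS52), with 0.86 to 0.90 and adjusted p between 0.069 and 0.0857.

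Protein-free mouse TS51 had the highest brown fat mean of all arrays, 7.51, while the other protein-free mice had 3.94 to 5.30 and the Control mice 4.35 to 5.41. Its Pdk4 (9.09) and Vnn1 (10.70) were within the range of the other protein-free mice, and its Plin5 (6.14) was the highest of them. Without protein-free mouse TS54, whose Pdk4 (8.04), Plin5 (5.26) and Cyp4a10 (11.06) were the lowest of its group, 6 members were called higher. The share of all genes called without TS54 is not given here, so that count is no result about the members.

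Short of the fold change minimum, Slc27a1 (0.54), Cpt1a (0.46) and Ehhadh (0.54) were higher in every protein-free mouse at an FDR under 5%. Of the 49 members, 36 (73.5%) had a positive fold change, against 50.2% of all genes, with a median of 0.16 against 0.00. Of the 20 members that rose after fasting, in other mice with other controls, 19 were positive here and 3 were called. Of the same 20, 17 were positive on the fat-free diet, where none was called, and 16 on the CHO-free diet, where 2 were called higher. The paper found that most probe sets changed by fasting kept their direction on the other diets. The count of 19 thus cannot be called particular to the members. Cyp4a10 (0.74, adjusted p = 0.0713), Angptl4 (0.87, adjusted p = 0.252) and Hacl1 (0.60, adjusted p = 0.146) were not called. The lowest value belonged to Acox3 with -0.57 (adjusted p = 0.084), below every Control mouse. Of the neighbouring genes, 1 of 48 was called, Ppard with -0.87.

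The CHO-free diet raised 2 members and lowered 2, where 1.5% of all genes rose and 2.61% fell. Cpt1b measured 7.23, 6.74, 6.82, 6.79 and 6.35 in the Control mice and 7.68, 7.31, 7.50, 7.49 and 7.60 in the CHO-free mice. Every CHO-free mouse was higher, by 0.73 ± 0.12 (adjusted p = 0.000241), and the call stood under every alternative run. Cyp4a10 measured 11.22, 10.91, 11.34, 10.85 and 10.41 and 12.19, 11.93, 11.96, 11.45 and 11.33. Only the lowest CHO-free mouse fell below the highest Control mouse, with 0.83 ± 0.21 (adjusted p = 0.0119). Acsm3 measured 12.08, 12.07, 12.04, 12.24 and 12.13 and 11.40, 11.90, 10.89, 10.70 and 11.16. The groups did not overlap, and the log2 fold change was -0.90 ± 0.16 (adjusted p = 0.00081). Echs1 measured 10.03, 10.20, 10.25, 10.28 and 10.05 and 9.70, 10.25, 8.78, 8.85 and 9.68. The groups overlapped, since CHO-free mouse TS32 lay within the Control range while TS34 and TS35 were lowest, and the log2 fold change of -0.71 ± 0.23 (adjusted p = 0.0462) was close to the threshold.

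Cell type markers moved with the CHO-free diet as well. The leukocyte mean was lower in every CHO-free mouse (5.03 to 5.26 against 5.28 to 5.73, 2 of 8 genes called lower) and the principal cell mean higher (7.43 to 7.60 against 6.87 to 7.36, 0 of 5 called), while the thick ascending limb mean overlapped at 10.24 to 10.98 against 10.93 to 11.13, with 2 of 6 genes called lower. The intercalated cell mean overlapped at 8.57 to 8.79 against 7.89 to 8.59, with 2 of 5 genes called higher. The distal convoluted tubule mean overlapped at 9.21 to 9.55 against 9.22 to 9.64, with 1 of 4 called lower. The part of these cell types in the results was not tested.

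The signal of Gapdh at its 3' end minus that at its 5' end, read by the array's quality probe sets and known to grow with RNA degradation, moved with the CHO-free diet. The difference was 0.98 to 2.45 in CHO-free and 0.65 to 0.96 in Control mice, a mean of 1.85 ± 0.62 (SD, n = 5) against 0.823 ± 0.14 (SD, n = 5), with p = 0.00794 by an exact two-sided permutation test, the smallest these groups can give, and 0.0476 after adjustment over the 6 comparisons. The other diets did not pass the same test after adjustment. Their means were 1.34 against 0.823 for protein-free, 1.27 against 0.823 for fat-free, 1.59 against 1.27 for DR and 0.93 against 0.88 for fasting. The highest protein-free mouse had 2.19. TS34 (2.45) and TS35 (2.45) were the highest of all 36 arrays. With this difference as a covariate Echs1 turned to 0.10 (adjusted p = 0.857), Acsm3 stood at -0.62 (adjusted p = 0.105) and Cyp4a10 at 0.72 (adjusted p = 0.225), all not called, while Cpt1b remained called. Without TS34 and TS35 Echs1 was -0.29 (adjusted p = 0.6) and Cyp4a10 0.87 (adjusted p = 0.0574), while Cpt1b and Acsm3 remained called. Echs1 was also lost without any 1 of the 5 Control mice, with -0.69 to -0.75, and without TS34 (-0.55) or TS35 (-0.56) alone.

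The CHO-free diet left the members without a common direction, 27 positive and 22 negative, with a median of 0.01 against 0.02 over all genes. Past the FDR threshold alone were Acsm1 (0.43), Cpt2 (0.46), Acadvl (0.35), Hsd17b4 (0.36) and Vnn1 (0.43), all higher, and Acad11 (-0.51), which was lower. The brightest Cd36 probe set had -0.20 and was not called, but its second probe set was called lower with -0.90. The CHO-free mice also differed among themselves. Pdk4 measured 7.37, 8.37, 7.59, 6.36 and 6.21, Angptl4 8.53, 8.61, 8.25, 7.44 and 6.71 and Ehhadh 11.26, 11.44, 11.01, 10.57 and 10.58. TS35 and TS36 were the 2 lowest mice in all 3 genes and TS32 was the highest. Of the neighbouring genes, Acacb (0.67), a synthase of malonyl-CoA, rose, and Amacr (-0.66) and Ppard (-0.72) fell.

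Put against each other, the CHO-free and protein-free diets differed in 4 members, all lower in CHO-free mice, where 1.7% of all genes were called higher and 1.92% lower. Pdk4 was lower in CHO-free mice, with a log2 difference of -1.69 ± 0.30 (adjusted p = 0.000522). Ehhadh measured 11.75, 11.87, 11.92, 12.13 and 11.52 in the protein-free mice, above every CHO-free mouse, a difference of -0.86 ± 0.14 (adjusted p = 0.000221). Both calls stood under every alternative run. Angptl4 measured 8.91, 9.29, 9.06, 9.25 and 8.65 in the protein-free mice, and its highest CHO-free value did not reach the lowest of these, with -1.12 ± 0.35 (adjusted p = 0.0472). Acad11 measured 10.74, 11.10, 10.88, 10.90 and 10.83 in the protein-free and 10.56, 10.96, 9.55, 10.02 and 10.41 in the CHO-free mice. These overlapped, with -0.59 ± 0.15 (adjusted p = 0.0168). Angptl4 was lost when any 1 protein-free mouse or any 1 of CHO-free mice TS34, TS35 and TS36 was left out (-0.82 to -1.22), and Acad11 without protein-free mouse TS50 or CHO-free mouse TS34 or TS35 (-0.40 to -0.54). The remaining 45 members were not called, and the plotted intervals show how large a difference each still allows.

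**Figure D4:**
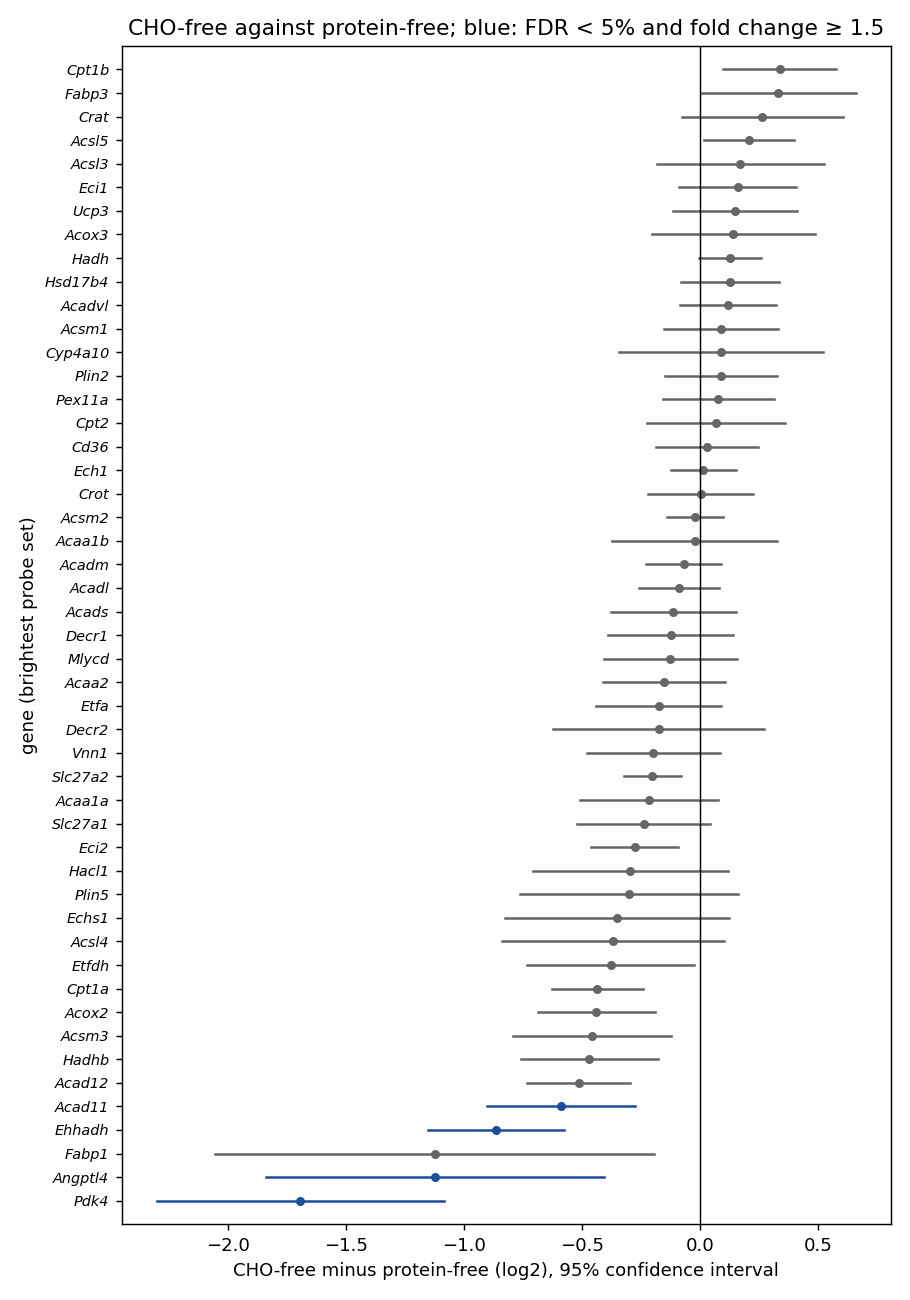
Difference between the CHO-free and the protein-free diet in the 49 members, sorted, as log2 difference with its 95% confidence interval from the limma fit, on the horizontal axis. Members in blue passed an FDR under 5% and a fold change of 1.5, namely Pdk4, Angptl4, Ehhadh and Acad11, all to the left of 0.

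Cyp4a10 and Plin5 belong to the members for which no difference was shown. Cyp4a10 differed between CHO-free and protein-free mice by 0.09 (95% confidence interval -0.34 to 0.52), and Plin5 by -0.30 (95% confidence interval -0.76 to 0.16). Against the fat-free diet, the CHO-free mice had lower Acsm3 with -0.85 ± 0.17 (adjusted p = 0.00678), the single member called, where 0.766% of all genes were higher and 0.801% lower, and it was lost without TS34 and TS35 (-0.57, adjusted p = 0.141).

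The fat-free diet called no member and no gene of the array, 0% of all genes. By limma 2 of the 49 members had an unadjusted p under 0.05, and 4.87% of all genes did. The fold changes ran from -0.38 for Ucp3 to 0.80 for Fabp1, with a median of 0.04 against 0.01. Pdk4 measured 8.32, 7.88, 7.71 and 7.34, within or above the Control range, with 0.54 ± 0.31 (adjusted p = 0.998).

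After 2 weeks of DR no member rose and 1 fell, where 0.509% of all genes rose and 0.608% fell. Acsm3 measured 12.07, 12.37 and 11.95 in the SDS mice and 10.84, 11.05, 11.12, 11.63 and 11.15 in the DR mice. All DR mice were lower, with a log2 fold change of -0.97 ± 0.19 (adjusted p = 0.00673). Without SDS mouse TS56, which leaves 2 controls, it was -0.85 (adjusted p = 0.0823). The SDS mice of this cohort had more fat signal, 6.02 to 6.81 for brown fat against 4.27 to 5.68 in DR mice, and with that mean as a covariate Acsm3 kept its size (-0.97) at an adjusted p of 0.0517. The distal convoluted tubule mean was lower in every DR mouse (8.70 to 9.28 against 9.40 to 9.45, 1 of 4 genes called lower), the adipocyte mean was lower too (6.353 to 7.064 against 7.066 to 8.253, 1 of 4 called lower), and the thick ascending limb mean overlapped (10.52 to 10.98 against 10.90 to 11.07, 0 of 6 called). The part of these cell types was not tested.

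Pdk4 measured 8.08, 8.34 and 8.21 in the SDS mice and 6.99, 7.06, 7.64, 6.76 and 6.76 in the DR mice. Here every DR mouse was lower, the opposite side from fasting, but the log2 fold change of -1.17 ± 0.34 (adjusted p = 0.0865) did not pass the FDR threshold. Acsl5, a long-chain synthetase, was lower in every DR mouse at an FDR under 5% with -0.42, short of the minimum. Of the 20 members that rose after fasting, 15 had a positive value after DR and none was called. That count cannot be called particular to the members either. The members' median was -0.02 against -0.01 for all genes. Fabp1 was higher in every DR mouse, with 4.77, 3.52, 4.39, 3.66 and 3.58 against 2.75, 2.88 and 2.52, at 1.27 ± 0.52 (adjusted p = 0.285). Of the neighbouring genes Ppard (-1.08) and Pdk3 (-0.72) fell.

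The control diets themselves did not differ in a called member. Control type I against SDS of the same cohort called 0 of 49 members by limma, 5 at an unadjusted p under 0.05, where 0% of all genes were called higher and 0.0702% lower. Over all genes 5.99% had an unadjusted p under 0.05. The log2 differences ran from -0.94 to 0.88. The lowest was that of Pdk4, which lay lower in all 5 Control mice than in all 3 SDS mice, by -0.94 ± 0.34 (adjusted p = 0.571). The SDS mice also had more fat signal than the Control mice, 6.02 to 6.81 against 4.35 to 5.41 for the brown fat mean and 7.07 to 8.25 against 5.48 to 6.45 for the adipocyte mean, and its part in these values was not tested.

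Acsm3 was the member with a lower call in the most diets. It fell after fasting (-0.87), after DR (-0.97) and on the CHO-free diet (-0.90), and was lower in every protein-free mouse without passing the test (-0.44, adjusted p = 0.197). On the fat-free diet it had -0.05 ± 0.17. In all, 23 of the 49 members were called in at least 1 of the 5 diets and 6 in more than 1, where 9.71% and 2.41% of all genes were, and none was called higher in one diet and lower in another. The other 26 were called in none, with fold changes between -0.57 and 1.503.

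The response to fasting was tested against that to the other diets, each taken from its own controls. The paper gives another hybridization date for the fasting cohort, so diet and cohort cannot be told apart in these differences. Fasting against the CHO-free diet called 17 members, 16 of them higher after fasting, where 1.93% of all genes were higher and 1.87% lower. Pdk4 differed by 3.16 ± 0.40 (adjusted p = 3.27e-06), the largest difference upward of all 17097 genes, and among the members called it was followed by Angptl4 with 2.00, Decr2 with 1.42, and Plin5 and Hacl1 with 1.36 each. Fabp1, not called, had 1.99 (adjusted p = 0.114). Fasting against the protein-free diet called 12 members, 11 higher, where 1.51% of all genes were higher and 1.64% lower, with Pdk4 at 1.47 ± 0.40 (adjusted p = 0.0337), Decr2 at 1.24 and Hacl1 and Plin5 at 1.06 each. Fasting against DR called 17 members, 16 higher, where 1.67% of all genes were higher and 1.42% lower. Pdk4 stood at 4.24 ± 0.43 (adjusted p = 6.27e-08). Its fall after DR, which is part of that difference, was -1.17 against 3 SDS mice and was not itself called (adjusted p = 0.0865). Leaving out any 1 array of the groups compared gave 13 to 15 differences between fasting and DR. The brown fat covariate gave 11, where 1% of all genes were higher and 0.866% lower. With K344 as the only fasted mouse, the CHO-free, protein-free and DR tests each called fewer members and fewer of all genes. Acsm1 was the one member lower in all 3 tests, with -1.31, -1.22 and -0.82. Elsewhere it was not called, with 0.43 on the CHO-free diet (at an FDR under 5%) and 0.34 on the protein-free diet (adjusted p = 0.167).

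DR and the protein-free diet differed in their effect on Pdk4 by -2.77 ± 0.45 (adjusted p = 0.0142), 1 of the 5 genes called of 17097 (0.00585% higher and 0.0234% lower). All SDS controls of DR lay above all Control mice in Pdk4, and DR mice set directly against protein-free mice differed by -1.83 ± 0.30 (adjusted p = 0.00151). The difference between the effects was lost without SDS mouse TS56 (-2.71, adjusted p = 0.0544) and with the brown fat mean as a covariate (-2.54, adjusted p = 0.171). DR and the CHO-free diet differed in Acsl5 by -0.65 ± 0.14 (adjusted p = 0.0255), where 0.398% of all genes were higher and 0.538% lower, and this call was lost without any 1 of the 3 SDS mice, DR mouse TS76 or Control mouse TS30 (-0.56 to -0.67). Set directly against CHO-free mice, DR mice differed in Acsl5 by -0.41 ± 0.09 (adjusted p = 0.00686), short of the fold change minimum.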

How the data were processed

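Kidney RNA of 36 mice was hybridised to 1 array each. The authors normalized each cohort separately by RMA, whose steps are a background correction, quantile normalization and a median polish of the probes, and dropped outlier arrays of 3 groups afterwards. The deposited values are on the log2 scale. Which RMA version they ran was not given in the sources used here. The values were used without further normalization, and the number of columns left unused was 0. The treatment protocol in the labels gives 4 SDS controls for DR, and the 3 with a sample label were all used.

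Differences were tested with limma 3.58.1 in R 4.3.3 (lmFit and eBayes), with separate models for the fasting cohort (9 arrays) and the other cohort (27 arrays). A model of all 36 arrays served only the tests of the fasting effect against another diet's effect, each effect taken within its own cohort, since values are not comparable across cohorts. The Benjamini-Hochberg adjustment ran over all 45141 probe sets, and a call needed an FDR under 5% and a fold change of at least 1.5. Of the probe sets, 28898 have 1 gene symbol (17097 genes), 551 several and 15692 none, from an array annotation that can be old. For the Gapdh difference an exact permutation test was run with scipy 1.17.1, adjusted over 6 comparisons. The models were checked on simulated data.

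The members, the lists and the rules were chosen with earlier results of these data known. By rule, every measured member is accounted for, values per mouse are given for up to 3 called members per role with the largest fold changes, and up to 4 neighbouring genes per comparison are named, to which Ppard and the pyruvate dehydrogenase regulators after fasting were added once their values were seen, as were the values per mouse of Vnn1, Ehhadh, Fabp1 and Acad11. Promoter windows came from RefSeq (GRCm38.p6). Figures were drawn with matplotlib 3.10.9. Alternatives were other priors, models, normalizations, filters and covariates, and leaving out each array. After seeing the data, 4 were added: leaving out TS34 and TS35, K344 as the only fasted mouse, the brown fat covariate, and DR set directly against 2 diets.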

Additional observations from a re-analysis of the deposited data

Results flagged for a closer look

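In 27 members called in a comparison or a difference, the highest and the lowest mouse were set against the rest of each group of 4 or 5, over 189 groups. A gap above Dixon's 95% critical value occurred in 9, and chance gives about 1 in 20. Mouse K349 stood apart below the other SDS mice of the fasting cohort in Echs1 (10.21), Hadhb (10.88) and Hsd17b4 (9.91), and mouse K346 in Acsm3 (12.00). Fasted mouse K340 was highest in Acaa2 (11.44) and Ech1 (12.70). Protein-free mouse TS54 was lowest in Hsd17b4 (9.64) and Plin5 (5.26), and Control mouse TS30 in Acsl5 (9.25).

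The response differed between diets, by a test of the difference itself, in 53 cases. Against the CHO-free effect, the fasting effect was larger in the mitochondrial genes Hadhb (0.82), Acaa2 (1.02), Decr1 (0.79) and Eci1 (0.84). It was also larger in the peroxisomal genes Decr2 (1.42), Eci2 (0.76), Ehhadh (0.85), Pex11a (0.64) and Hacl1 (1.36). Further genes with a larger effect were Acad11 (1.09), Cyp4a10 (0.97), Angptl4 (2.00), Pdk4 (3.16), Vnn1 (0.90), Plin2 (0.68) and Plin5 (1.36). The fasting effect was lower in Acsm1 (-1.31). Against the protein-free effect it was larger in Acaa2 (0.86), Decr1 (0.66), Eci1 (1.004), Decr2 (1.24), Pex11a (0.72), Hacl1 (1.06), Cyp4a10 (1.05), Pdk4 (1.47), Vnn1 (0.70), Plin2 (0.76) and Plin5 (1.06), and lower in Acsm1 (-1.22). Against the DR effect it was larger in Acsl5 (0.69), Cpt2 (0.70), Acad11 (0.76), Hadhb (0.78), Acaa2 (0.9996), Decr1 (0.90), Eci1 (1.05), Eci2 (0.84), Ehhadh (0.72), Pex11a (0.75), Hacl1 (1.75), Cyp4a10 (1.39), Pdk4 (4.24), Vnn1 (1.01), Plin2 (1.15) and Plin5 (1.73), and lower in Acsm1 (-0.82). These 3 tests share the fasted mice and their controls, and in them diet and cohort cannot be told apart. Acad11, Hadhb and Ehhadh were called neither after fasting nor on the CHO-free diet, where they had -0.51, -0.31 and -0.32. Of all called fold changes and differences that involve the CHO-free diet, 18 stayed past the threshold without TS34 and TS35 and 9 were lost. The CHO-free diet lay below the protein-free diet in Acad11 (-0.59), Ehhadh (-0.86), Angptl4 (-1.12) and Pdk4 (-1.69), and below the fat-free diet in Acsm3 (-0.85). The DR effect lay below the CHO-free effect in Acsl5 (-0.65) and below the protein-free effect in Pdk4 (-2.77).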

How the results depend on the processing

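No paired analysis was possible because the labels give no replicate numbers and each array is a different mouse. Of the 22 members called after fasting, 19 stayed past the threshold under every alternative run, and of all 83 called fold changes and differences 42 did. The median shift of all genes under another scaling stayed within 0.03. Without a fold change minimum, 4 members were lower after fasting and 2 after DR. On the protein-free diet 6 were then higher, and on the CHO-free diet 7. CHO-free mice differed in 9 members from protein-free and in 2 from fat-free mice. Acad11, Acadvl, Acadl, Hadhb, Ehhadh, Cpt1a, Acsl4 and Acsl5 were then also higher after fasting, and Acad11 was lower on the CHO-free diet. The share of all genes that pass in this way is not given here, so these counts are no result about the members. On the CHO-free diet, in place of 2, 1 member was called lower with a trended and robust prior, a model of these groups alone, quantile normalization, the adipocyte or the brown fat covariate or without TS34 and TS35 (1 called higher as well), and 0 with the Gapdh covariate, where Echs1 reversed to 0.10. The cause was not tested. The 4 differences between the CHO-free and protein-free diets became 2 with a model of the groups alone, quantile normalization, the mean of a gene's probe sets, the Gapdh covariate or without TS34 and TS35. The difference in Acsm3 from the fat-free diet was lost (0) with the model of the groups alone and without those mice. After DR, 2 members were lower with the model of the groups alone or array weights, and 0 with the brown fat covariate. Array weights gave 1 lower member on the protein-free diet. The Acsl5 difference between DR and CHO-free was lost (0) with the model of the groups alone and with the adipocyte or the brown fat covariate. It was lost with the diets compared directly too (-0.41). The Pdk4 difference between DR and protein-free was lost (0) with the brown fat covariate, which also left 11 of 17 differences between fasting and DR. With K344 as the only fasted mouse, fewer members differed from each of the CHO-free, protein-free and DR effects.

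Leaving out 1 array at a time gave 18 to 22 higher and 2 lower members after fasting, 0 higher and 0 to 1 lower after DR, 1 to 6 higher and 0 lower on the protein-free diet, 2 to 4 higher and 1 to 3 lower on the CHO-free diet, and 0 on the fat-free diet and for Control against SDS. The differences ranged from 2 to 6 (CHO-free and protein-free), 1 to 5 (CHO-free and fat-free), 0 to 2 (DR and CHO-free), 0 to 1 (DR and protein-free), 15 to 19 (fasting and CHO-free), 8 to 12 (fasting and protein-free) and 13 to 15 (fasting and DR). The extremes came without Control mouse TS28 or protein-free mouse TS52 (1) and TS54 (6), without CHO-free mouse TS36 (4) or TS32 (3), without SDS mouse TS56 (0), without protein-free mouse TS50 (2) and without fasted mouse K344 (8). Shares of all genes in these runs are not given here, so the ranges are no result about the members.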
